A study of Mus musculus with 21 samples.

Results

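Atrial sections and left ventricles of the same mouse hearts were compared for what their RNA says about cell types and extracellular matrix. The comparison used all 14 libraries of these 2 sections, out of 21 libraries in the series, and paired them within each of 7 mice. All mice were wild type, male and adult; for 8 weeks 4 received polystyrene nanoplastics and 3 received distilled water (controls), so the groups were the atrial section and the left ventricle of 4 nanoplastics mice and the atrial section and the left ventricle of 3 control mice. Each library is bulk RNA of one dissected piece of one perfused heart, made by capture of polyadenylated RNA, and its deposited values are raw counts per gene. The series title concerns disturbed rhythm after nanoplastics. The comparison here asks how 2 chambers that differ in wall, lining and muscle differ in the RNA collected.

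Atrial muscle is marked by its own myosin light chain, by sarcolipin and by atrial natriuretic peptide, while ventricular muscle carries the ventricular light chains and depends heavily on mitochondria. The atrial wall is thin, and an atrial dissection can include valve leaflets, the roots of the large vessels, epicardium and the fat beside them. Matrix in these tissues is made mainly by fibroblasts and valve interstitial cells: fibrillar collagens give strength, elastic fibres give recoil, laminins and collagen IV form basement membranes, small proteoglycans space the fibres, and proteases with their inhibitors remodel them.

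The libraries held 413436 to 2439314 counts, the lowest in the left ventricle of control mouse 3. Levels are given as CPM, counts per 1e+06 counts of a library, with edgeR's TMM scaling factors. In the libraries, 1 count was worth 0.434 to 2.37 CPM, and the limit that a count of 0 allows (3 counts) was 1.3 to 7.10 CPM, counting error only. Atrial libraries averaged 1232360 counts and left ventricular libraries 1407260 (exact two-sided sign-flip test over 7 mice, p = 0.625, smallest p possible 0.015625). Mitochondrially encoded genes took 23.9 ± 4.21% of counts in atrial sections and 29.0 ± 3.87% in left ventricles (SD, n = 7 each; lower in the atrial section in all mice but nanoplastics mouse 4, exact p = 0.0469, adjusted p = 0.117 over 5 measures).

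Most libraries labelled atrial section had little atrial muscle RNA. Myl7, the atrial myosin regulatory light chain, was at 14956 CPM in the atrial section of nanoplastics mouse 1, against 2.10 CPM in its left ventricle. Nanoplastics mouse 4 had 1507 CPM in the atrial section and 838 CPM in the ventricle. In the other 5 mice it was between 3.52 and 86.6 CPM in atrial sections and between 2.65 and 23.7 CPM in left ventricles. Mouse by mouse, atrial section first, it was at 42.9 and 3.29 CPM in nanoplastics mouse 2 and 3.52 and 4.49 CPM in nanoplastics mouse 3. Control mice 1 to 3 had 9.83 and 2.65 CPM, 86.6 and 3.04 CPM, and 28.6 and 23.7 CPM. Sln, encoding the calcium pump regulator sarcolipin, had the same extremes, at 21853 CPM in the atrial section of nanoplastics mouse 1, and at 1369 CPM in the atrial section and 637 CPM in the left ventricle for nanoplastics mouse 4. Nppa, the atrial natriuretic peptide gene, was at 26286 CPM in the first of these libraries and at 19.9 to 309 CPM in the other 6 atrial sections, a range that overlaps that of the left ventricles (37.8 to 690 CPM). Control mouse 2 also had more Sln (127 against 3.91 CPM) and Nppa (309 against 37.8 CPM) in its atrial section. Over the 7 mice, Sln was lower in the atrial section in 2 and Nppa in 3. The atrial section of 1 mouse was thus rich in these genes, both sections of another held Myl7 and Sln, and the other atrial sections were far below the first, though Myl7 was higher in the atrial section than in the left ventricle in 6 of 7 mice. None of the 3 passed the test (log2 differences 3.43, 3.94 and 0.66, edgeR quasi-likelihood adjusted p = 0.508, 0.52 and 0.888).

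**Figure D1:**
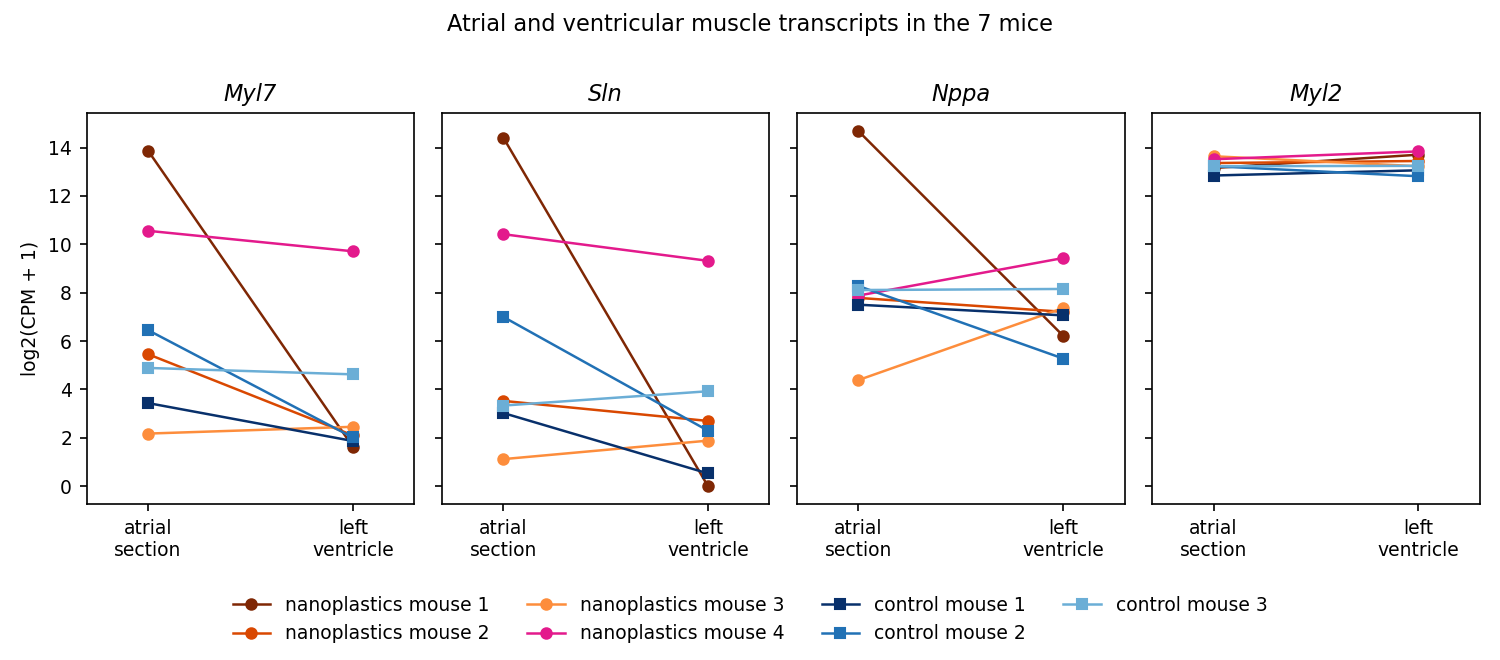
Levels of 3 atrial muscle genes (Myl7, Sln, Nppa) and the ventricular light chain gene Myl2, as log2(CPM + 1), in the atrial section (left) and left ventricle (right) of each mouse, joined by a line. Nanoplastics mouse 1 stands apart in the atrial genes, nanoplastics mouse 4 is high in Myl7 and Sln in both sections, and Myl2 is at a like level everywhere.

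Ventricular muscle genes were abundant in both sections. Myl2, the ventricular regulatory light chain, ranged from 7353 to 12766 CPM in atrial sections with a median of 9604, and from 7202 to 14666 CPM in left ventricles with a median of 9692. The ranges overlap almost fully (log2 difference -0.05, SE 0.10, adjusted p = 0.878, turning positive when libraries were scaled by totals alone). Myl3, the ventricular essential light chain, averaged 8204 ± 1629 CPM in atrial sections and 9084 ± 1615 CPM in left ventricles (SD, n = 7 each; lower in the atrial section in 6 of 7 mice, adjusted p = 0.476). Myh6, the fast cardiac myosin heavy chain of both chambers, averaged 2622 ± 761 CPM in atrial sections and 2131 ± 985 CPM in left ventricles (log2 difference 0.34, SE 0.11, adjusted p = 0.223). Myh6 was called higher in control mice only (log2 difference 0.66, adjusted p = 0.000509) and without nanoplastics mice 1 and 4 (0.53, adjusted p = 0.000166), and had 0.10 in nanoplastics mice only (adjusted p = 0.905). Bmp10, an atrial growth factor gene, had no count in any atrial section, that of nanoplastics mouse 1 included, so it does not separate these sections. The pacemaker channel gene Hcn4 had a median of 0 in both sections. Of the other atrial muscle markers, Myl4 was higher in the atrial section in 7 of 7 mice (medians 16.2 and 3.59 CPM). Dkk3 was higher in 5 of 7 (medians 6.48 and 0.70 CPM), Kcnj3 in 4 and Gja5 in 3. Myl4, Dkk3 and Gja5 had too few counts to be tested. The labels are kept as names below, and an atrial section is a piece so labelled.

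Of 5176 genes tested with the mouse as a block, 8 had an adjusted p under 0.05 (0.155%), all higher in the atrial section: Col1a2, Sparc, Igfbp7, Timp3, C3, Lrp1, App and Mustn1. No gene was called lower by edgeR, DESeq2 or limma-voom, though 232 had an unadjusted p under 0.05 and a lower level by edgeR (4.48%). At the same unadjusted level 420 genes were higher (8.11%), 108 genes were higher in the atrial section in 7 of 7 mice (2.09%) and 86 lower in all 7 (1.66%). These shares over all genes tested are the background for the counts of listed genes below. Of the 8 called genes, 4 belong to the 151 listed matrix genes, C3 and Mustn1 to lists of other cell types, and Lrp1 and App to no list.

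Col1a2 encodes the alpha-2 chain of type I collagen, the main tensile fibre of the heart. It ranged from 14.7 to 56.4 CPM in atrial sections with a median of 29.4, and from 4.73 to 23.2 CPM in left ventricles with a median of 9.88. The groups overlap, but each mouse had more in its atrial section (log2 difference 1.34, SE 0.22, edgeR adjusted p = 0.0165). The raw counts behind it were small, 21 to 62 in atrial libraries and 2 to 35 in left ventricular ones.

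Sparc encodes a collagen-binding glycoprotein that helps collagen assemble. It ranged from 96.4 to 137 CPM in atrial sections with a median of 118, and from 65.5 to 96.0 CPM in left ventricles with a median of 75.6. Here the lowest atrial section was just above the highest left ventricle (log2 difference 0.60, SE 0.11, adjusted p = 0.0327).

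Igfbp7, the gene of a secreted protein of vessel walls and basement membranes that binds insulin-like growth factors, ranged from 95.8 to 189 CPM in atrial sections with a median of 134, and from 48.4 to 108 CPM in left ventricles with a median of 76.4. It was higher in the atrial section in 6 of 7 mice, and nanoplastics mouse 4 had 95.8 CPM in the atrial section and 108 CPM in the ventricle (log2 difference 0.80, SE 0.15, adjusted p = 0.0327). Timp3, a matrix-bound inhibitor of metalloproteinases, ranged from 35.2 to 92.0 CPM in atrial sections with a median of 54.5, and from 23.1 to 42.6 CPM in left ventricles with a median of 27.8. All 7 mice had more in the atrial section (log2 difference 0.96, SE 0.18, adjusted p = 0.0327).

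The other 4 called genes serve complement, uptake, the cell surface and muscle. C3, the central complement component, also listed here as a mesothelial marker, ranged from 35.6 to 139 CPM in atrial sections with a median of 95.0, and from 19.9 to 77.9 CPM in left ventricles with a median of 30.8. It was higher in the atrial section in 7 of 7 mice (log2 difference 1.07, SE 0.20, adjusted p = 0.0391). Lrp1, a scavenger receptor of fibroblasts, smooth muscle and macrophages, averaged 20.0 ± 7.25 CPM in atrial sections and 7.84 ± 4.72 CPM in left ventricles (SD, n = 7 each; 6 of 7 mice, log2 difference 1.29, SE 0.26, adjusted p = 0.0391). App, the amyloid precursor protein gene, ranged from 29.2 to 37.9 CPM in atrial sections with a median of 34.3, and from 12.6 to 24.4 CPM in left ventricles with a median of 18.9. Its groups do not overlap (log2 difference 0.85, SE 0.16, adjusted p = 0.0327). Mustn1, a small nuclear protein gene of muscle and skeletal tissue placed here in the smooth muscle list, averaged 22.3 ± 7.97 CPM in atrial sections and 11.5 ± 4.73 CPM in left ventricles (SD, n = 7 each, higher in 7 of 7 mice, log2 difference 0.98, SE 0.20, adjusted p = 0.0473). Raw counts were small for Lrp1 (16 to 29 in atrial libraries, 1 to 21 in left ventricular ones). The same holds for Mustn1 (15 to 44 in atrial libraries, 2 to 25 in left ventricular ones).

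**Figure D2:**
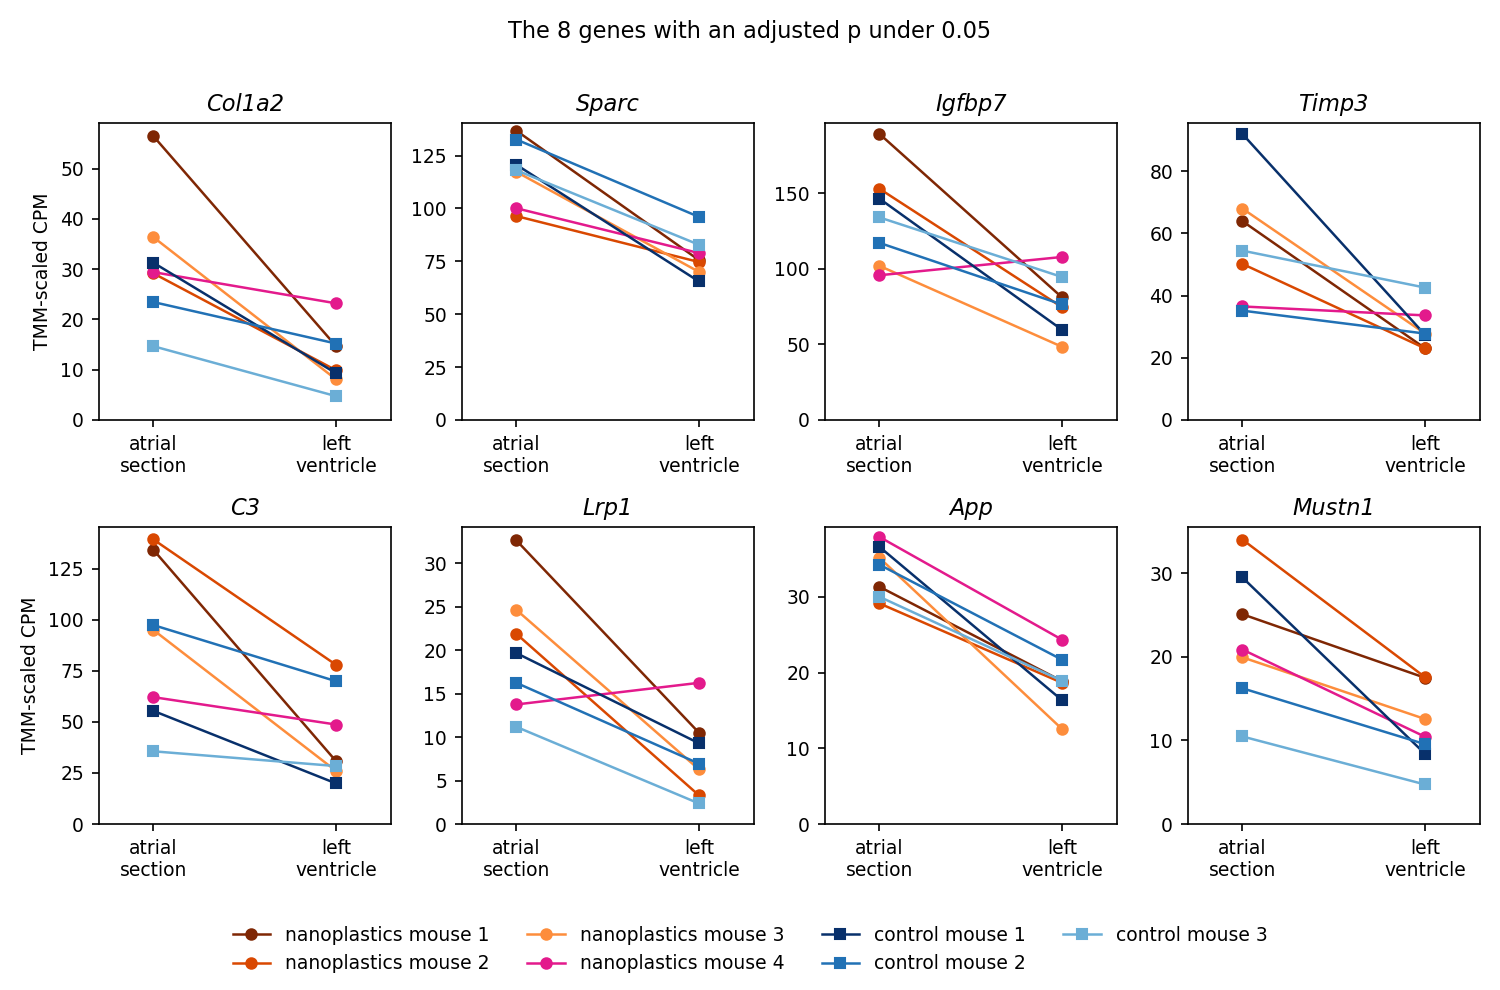
TMM-scaled CPM of the 8 called genes in the atrial section (left) and left ventricle (right) of each mouse, joined by a line. Nearly all lines fall toward the left ventricle, and in nanoplastics mouse 4 Igfbp7 and Lrp1 are lower in the atrial section.

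These 8 calls were sensitive to single mice. The counts of genes called higher and lower were 71 and 27 without nanoplastics mouse 4, and 4 and 2 without control mouse 2. The count was 0 without nanoplastics mouse 2, without nanoplastics mouse 3 and without control mouse 1, and 0 with no replicate block. In nanoplastics mice only 4 genes were called higher and 4 lower, none of them among the 8, and in control mice only 14 higher and 3 lower, with Igfbp7 the 1 shared gene. All 8 genes had a positive log2 difference in each of 20 alternatives, in 9 to 14 of which a given gene was called.

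The promoters of the 4 called matrix genes are shown because these genes are higher together in the atrial section. Each is the 150 bases before the transcription start in RefSeq on build GRCm38.p6, 5′ to 3′ on the gene's strand. Capitals mark the letters of a CCAAT box (CCAAT) or a GC box (GGGCGG), read on both strands; a TATA box (TATAAA) and the CArG box were searched in the same way. Col1a2 lies at chr6:4505468-4505617 on the + strand, Timp3 at chr10:86300262-86300411 on the + strand, Igfbp7 at chr5:77408046-77408195 on the - strand and Sparc at chr11:55420081-55420230 on the - strand.
Col1a2: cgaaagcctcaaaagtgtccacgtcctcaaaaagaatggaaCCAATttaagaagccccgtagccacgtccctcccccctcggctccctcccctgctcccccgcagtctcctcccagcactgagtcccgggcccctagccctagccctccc
Timp3: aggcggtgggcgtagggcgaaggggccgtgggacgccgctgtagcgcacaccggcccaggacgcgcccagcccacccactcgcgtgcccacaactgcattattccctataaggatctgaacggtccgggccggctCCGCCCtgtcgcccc
Igfbp7: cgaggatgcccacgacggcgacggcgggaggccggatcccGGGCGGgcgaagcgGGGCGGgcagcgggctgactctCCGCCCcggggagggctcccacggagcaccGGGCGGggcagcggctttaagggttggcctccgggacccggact
Sparc: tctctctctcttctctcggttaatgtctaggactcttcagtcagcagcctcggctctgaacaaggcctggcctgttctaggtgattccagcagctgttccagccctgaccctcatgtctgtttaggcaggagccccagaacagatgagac

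The 4 windows share no motif of the 4 searched. Col1a2 has 1 CCAAT box, whose letters begin 109 bases before the start. Igfbp7 has 4 GC boxes and Timp3 has 1, and Sparc has none of these letters in its window. Over the 8 called genes, 4 windows held a GC box and 1 a CCAAT box. Among 32851 RefSeq windows of the same length, 28.6% held a GC box, 24.5% a CCAAT box, 7.57% a TATA box and 0.916% a CArG box.

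The matrix genes leaned to the atrial section well beyond the calls. Of 151 listed matrix genes, 48 passed the count filter and 4 were called higher and none lower. Of the 48, 26 had an unadjusted p under 0.05 and a higher level (54.2%, against 8.11% of all genes tested), none a lower one, and 44 had a positive log2 difference (51.4% of all genes tested). Their median log2 difference was 0.64, against 0.01 over all genes tested, and 7 were higher in 7 of 7 mice (14.6%, against 2.09%). A gene seen only in one section can pass the filter through that section, so the sum over every listed matrix gene with a row, 141 of them, was also taken. That sum ranged from 3193 to 6078 CPM in atrial sections with a median of 4149, and from 2504 to 3522 CPM in left ventricles with a median of 2834. It was higher in the atrial section in 6 of 7 mice, and nanoplastics mouse 4 had 3251 CPM in its atrial section and 3522 CPM in its left ventricle. In that mouse the matrix gene Mgp, given below, was itself lower in the atrial section, by more than these sums differ. Abundant genes that passed the filter weigh most in this sum. Dcn alone had a median of 1343 CPM in atrial sections and 980 CPM in left ventricles. The sum thus says little of the genes that did not pass. In bulk RNA, fewer cells of a type and less RNA per cell cannot be told apart.

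**Figure D3:**
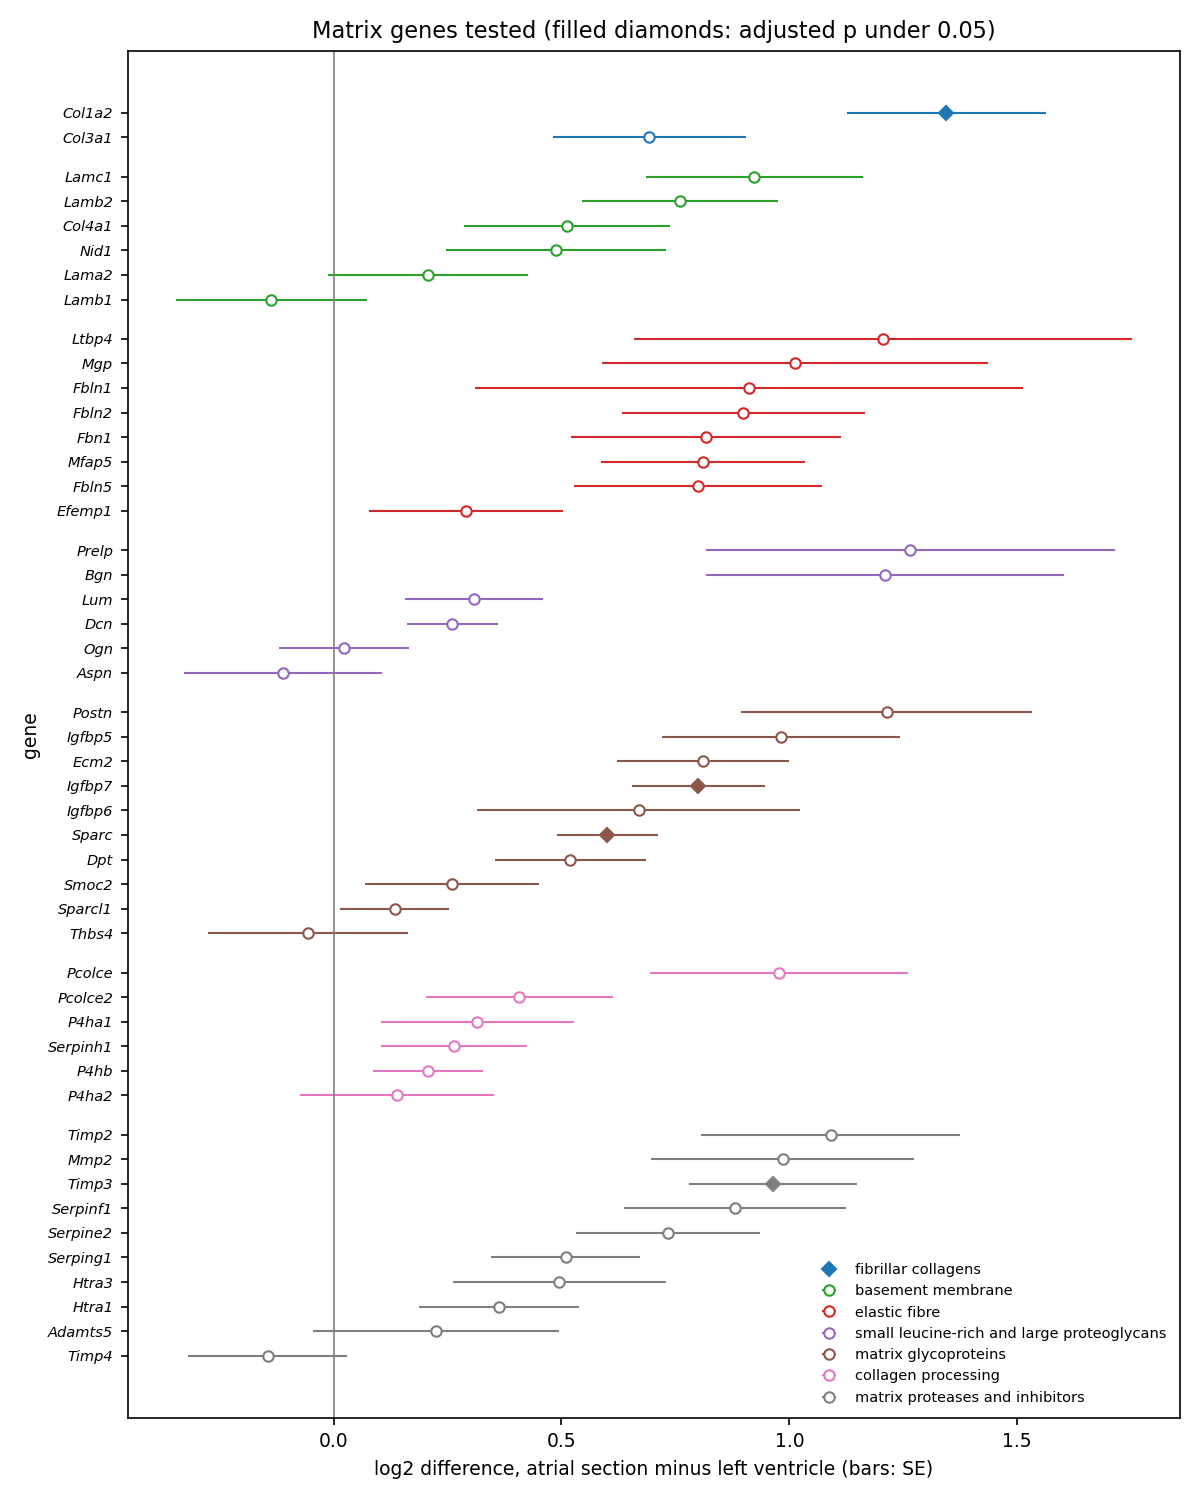
Log2 difference (atrial section minus left ventricle, with SE) of the 48 matrix genes tested, grouped and coloured by role, each gene shown once. Filled diamonds are the 4 called genes, and 44 of the 48 points lie to the right of 0.

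Among fibrillar collagens, Col1a2 was called and Col3a1, the type III chain of compliant tissue, had 30.3 ± 8.73 CPM in atrial sections and 18.7 ± 5.25 CPM in left ventricles (SD, n = 7 each; 6 of 7 mice, log2 difference 0.69, SE 0.21, adjusted p = 0.18). Col1a1, the partner chain of Col1a2, did not pass the count filter, at a median of 5.22 CPM in atrial sections and 1.33 CPM in left ventricles. The summed level of the list was higher in the atrial section in 7 of 7 mice, by a median log2 ratio of 0.81. The other collagens, among them collagen VI, had no member that passed the filter.

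Elastic fibre genes were a second group of this kind. All 8 tested members had a positive log2 difference, with a median of 0.86, 4 had an unadjusted p under 0.05, and none was called. Mgp, which keeps elastic tissue and cartilage from calcifying, ranged from 251 to 1400 CPM in atrial sections with a median of 449, and from 148 to 607 CPM in left ventricles with a median of 231. The 607 CPM came from the left ventricle of nanoplastics mouse 4, and its atrial section had 311 CPM (log2 difference 1.01, SE 0.42, adjusted p = 0.403). Ltbp4, which tethers latent TGF-beta and helps elastic fibres form, had a log2 difference of 1.2 (SE 0.55, adjusted p = 0.426), and the microfibril gene Mfap5 0.81 (SE 0.22, adjusted p = 0.167). Eln, elastin itself, did not pass the filter: it had 0.698 to 9.83 CPM in atrial sections and no count in 5 of 7 left ventricles, with 1 to 11 counts in each atrial library, too few to compare the sections mouse by mouse.

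Of the 6 tested basement membrane genes, 3 had an unadjusted p under 0.05 and a higher level, and their median log2 difference was 0.50. The laminin chain genes Lamc1 (0.92, SE 0.24, adjusted p = 0.131) and Lamb2 (0.76, SE 0.21, adjusted p = 0.159) were each higher in 7 of 7 mice, whereas Lamb1 had -0.14 (SE 0.21). Proteoglycans were split. The biglycan gene Bgn had 55.7 ± 19.7 CPM in atrial sections and 22.8 ± 13.4 CPM in left ventricles (SD, n = 7 each; log2 difference 1.21, SE 0.39, adjusted p = 0.284), and Prelp, which anchors collagen to basement membrane, had 1.27 (SE 0.45, adjusted p = 0.284). Dcn, decorin, ranged from 871 to 1752 CPM in atrial sections with a median of 1343, and from 838 to 1490 CPM in left ventricles with a median of 980 (log2 difference 0.26, SE 0.10, adjusted p = 0.286). Ogn and Aspn, osteoglycin and asporin, had 0.02 and -0.11, and the list had a median of 0.28.

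Matrix glycoproteins gave 2 calls, Sparc and Igfbp7, among 10 tested, with a median of 0.64. Postn, periostin, a protein of valves and of activated fibroblasts, ranged from 9.96 to 45.4 CPM in atrial sections with a median of 30.4, and from 2.37 to 22.0 CPM in left ventricles with a median of 10.2 (log2 difference 1.21, SE 0.32, adjusted p = 0.159). Its lowest atrial section and its highest left ventricle were both those of nanoplastics mouse 4. Fn1, fibronectin, did not pass the filter, at 2.79 to 12.5 CPM in atrial sections and 0 to 3.59 CPM in left ventricles; nanoplastics mouse 3 had 4 counts in each section, and the atrial value of control mouse 3 lay under the limit of its left ventricle (7.10 CPM).

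Genes that process collagen had no call. The 6 tested members had a median log2 difference of 0.29, with Pcolce, an enhancer of procollagen cleavage, at 0.98 (SE 0.28, adjusted p = 0.167), and the collagen chaperone gene Serpinh1 at 0.26 (SE 0.16, adjusted p = 0.515). Of the 10 proteases and inhibitors, 7 had an unadjusted p under 0.05 and a higher level, and Timp3 alone was called. Timp2 (1.09, SE 0.28) and the gelatinase gene Mmp2 (0.99, SE 0.29) were not called (adjusted p = 0.159 and 0.168). Timp4, the inhibitor typical of heart tissue, had -0.15 (SE 0.17, adjusted p = 0.793).

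Fibroblast markers followed the matrix, and share several genes with it. All 18 tested of 27 had a positive log2 difference, 12 with an unadjusted p under 0.05 (66.7%, against 8.11% of all genes tested). Of the 18, 1 was called (Col1a2), and their median was 0.72. The sum of the 27 ranged from 2199 to 5158 CPM in atrial sections with a median of 3292, and from 1822 to 2722 CPM in left ventricles with a median of 2095. Among markers that are not matrix genes, Pdgfra, a receptor of resident fibroblasts, had 9.74 ± 4.48 CPM in atrial sections and 7.46 ± 2.97 CPM in left ventricles (SD, n = 7 each; 4 of 7 mice), and the transcription factor gene Tcf21 8.92 ± 2.91 CPM in atrial sections and 7.16 ± 2.66 CPM in left ventricles (5 of 7 mice). Neither passed the filter. Cygb, cytoglobin of fibroblasts, was higher in 7 of 7 mice (0.74, SE 0.17, adjusted p = 0.0778).

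**Figure D4:**
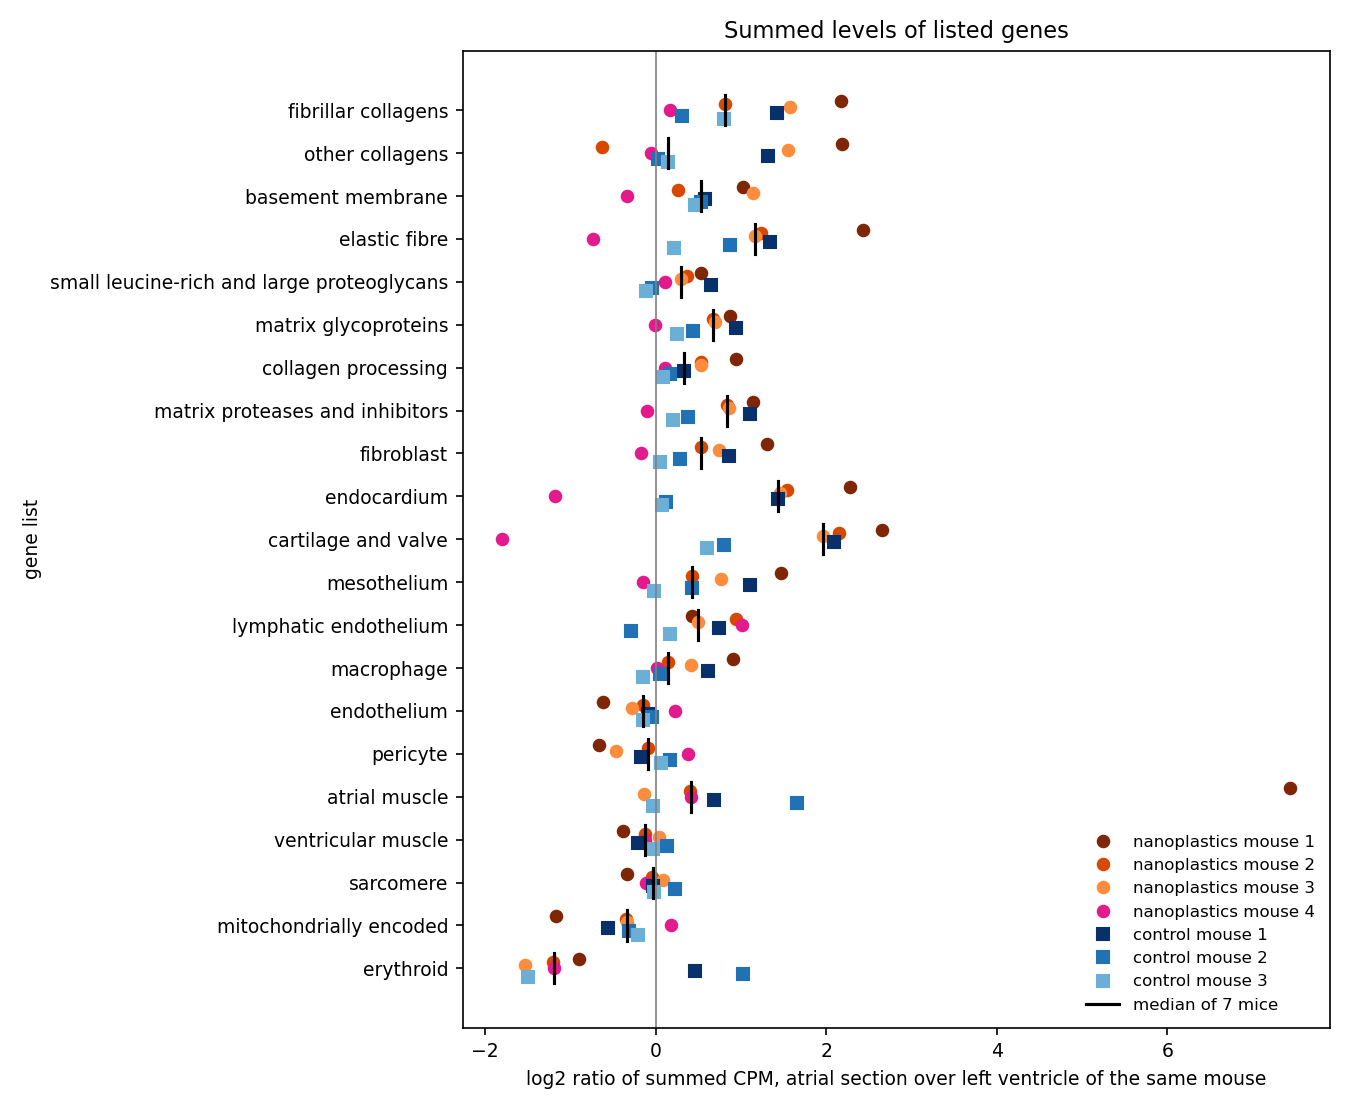
Log2 ratio of summed CPM, atrial section over left ventricle of the same mouse, for 21 gene lists, with circles for nanoplastics mice, squares for control mice and a bar at the median. Matrix, fibroblast, endocardial and valve sums lie right of 0 in most mice, and nanoplastics mouse 1 is far right in atrial muscle. Sums of nanoplastics mouse 4 lie left of 0 for valve, endocardium, elastic fibre, basement membrane, fibroblast and proteases and right of 0 for fibrillar collagens. Valve and endocardium share Cytl1, and elastic fibre and fibroblast share Mgp.

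Endocardial and valve markers were patchy. Cytl1, a secreted protein gene of cartilage listed here for endocardium and valve, and the only tested member of the valve list, was at 161, 114, 62.2 and 17.5 CPM in the atrial sections of nanoplastics mice 1 to 4 and at 127, 20.7 and 24.4 CPM in those of control mice 1 to 3. In the left ventricles it was at 22.4, 23.1, 17.0 and 85.8 CPM in nanoplastics mice 1 to 4 and at 22.1, 14.3 and 23.7 CPM in control mice 1 to 3. The high values thus belonged to 4 atrial sections and to the left ventricle of nanoplastics mouse 4 (log2 difference 1.29, SE 0.72, adjusted p = 0.538). The endocardial sum had log2 ratios of 2.28, 1.53, 1.46 and -1.18 in nanoplastics mice 1 to 4 and 1.44, 0.12 and 0.07 in control mice 1 to 3. Cytl1 is itself part of this sum, which is thus not separate from it. Cytl1 made up 161 of 275 CPM in the atrial section of nanoplastics mouse 1 and 127 of 197 CPM in that of control mouse 1. In the left ventricle of nanoplastics mouse 4 it made up 85.8 of 144 CPM.

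Smooth muscle was also patchy. Acta2, smooth muscle actin, ranged from 14 to 216 CPM in atrial sections with a median of 47.7, and from 4.39 to 33.1 CPM in left ventricles with a median of 12.8 (log2 difference 2.18, SE 0.67, adjusted p = 0.286). Myh11, the defining smooth muscle myosin, did not pass the filter. Its atrial sections had 53.6 CPM in control mouse 1, 21.1 CPM in each of nanoplastics mice 2 and 3, and at most 7.11 CPM in the others, against at most 5.49 CPM in the left ventricles. Tpm2, the beta-tropomyosin gene, was just short of a call (1.74, SE 0.33, adjusted p = 0.0643). The list's summed level is not used here, since Pln, a calcium pump regulator that heart muscle shares, made up 4771 ± 312 CPM of it in atrial sections and 5548 ± 455 CPM in left ventricles (SD, n = 7 each).

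Endothelial genes were mixed. Pecam1, the pan-endothelial junction gene, ranged from 32.8 to 50.2 CPM in atrial sections with a median of 43.2, and from 21.5 to 54.5 CPM in left ventricles with a median of 34.3 (log2 difference 0.29, SE 0.15, adjusted p = 0.425). Of 17 tested endothelial genes 3 had an unadjusted p under 0.05 and a higher level and 1 a lower one, the fatty acid transporter gene Cd36 (-0.32, SE 0.12, adjusted p = 0.286). The endothelial sum was lower in the atrial section in 6 of 7 mice by a median log2 ratio of -0.14, while the list's median log2 difference was 0.20; Cd36 alone had 1082 ± 249 CPM in atrial sections and 1334 ± 211 CPM in left ventricles (SD, n = 7 each), and the sum and the median thus differ in sign. The co-receptor gene Eng, also of fibroblasts, had 1.16 (SE 0.30, adjusted p = 0.135). Pericyte genes, with 6 tested, had a median of 0.05 and none at an unadjusted p under 0.05. The lymphatic and macrophage receptor gene Lyve1 had 0.75 (SE 0.22, adjusted p = 0.163).

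Mesothelial and fat genes separated single hearts. Upk3b, the uroplakin of the epicardial surface, was at 20.1 CPM in the atrial section of nanoplastics mouse 1 and 12.5 CPM in that of control mouse 1, at no more than 4.86 CPM in the other atrial sections, and at no more than 2.17 CPM in any left ventricle. Ucp1, the uncoupling protein of brown fat, was at 51.8 CPM in the atrial section of control mouse 1, 1.25 CPM in that of nanoplastics mouse 1 and 0 in the other atrial sections, and had a count in only 1 left ventricle, that of nanoplastics mouse 1. Adipoq, the fat hormone adiponectin, was at 23.2 CPM in the same control section and at no more than 4.74 CPM elsewhere in the atrial sections and 2.32 CPM in the left ventricles. Cfd and Car3, adipsin and carbonic anhydrase 3 of fat, were high in more of the atrial sections. Cfd had 3.49 to 149 CPM in atrial sections and 0 to 5.49 CPM in left ventricles, and Car3 had 2.79 to 94.7 CPM in atrial sections and 0.885 to 4.64 CPM in left ventricles, the lowest atrial value of each being that of control mouse 3, under the limit of its left ventricle. None of these 5 genes passed the filter. With no filter on low counts, where 19978 genes were tested, all 5 were among the genes called, as were Myh11 and Fn1. In nanoplastics mice only, Cfd and Car3 passed the filter and were called higher (3.73 and 3.33, edgeR adjusted p = 0.000148 each). Both passed it through the atrial sections, where they are high, so these calls add no separate support. The values of Ucp1 come almost wholly from the atrial section of control mouse 1. The lists as wholes were less clear. The adipocyte sum was higher in the atrial section in only 2 of 7 mice (median log2 ratio -0.10), and its 7 tested genes had a median log2 difference of 0.07. That sum was 1331 to 1780 CPM in atrial sections and 1261 to 1693 CPM in left ventricles. It includes Fabp4, listed for endothelium too, and Acsl1, listed for fatty acid oxidation too, so it is not a measure of fat cells alone. The mesothelial sum was higher in 5 of 7 mice (median log2 ratio 0.43). Wt1 of the mesothelial list averaged 0.58 CPM in atrial sections and 0.57 CPM in left ventricles.

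**Figure D5:**
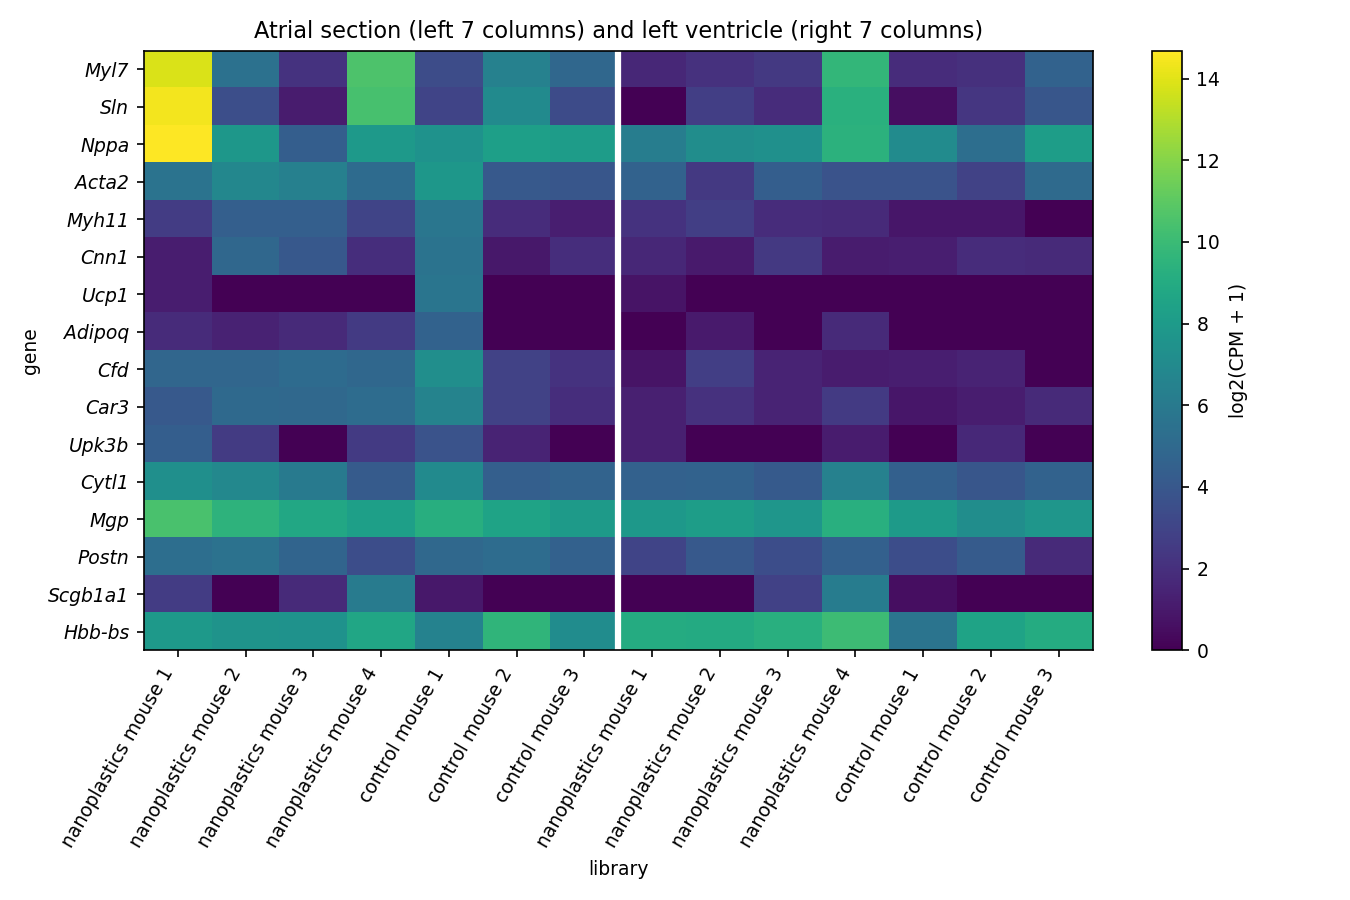
Levels as log2(CPM + 1) of 16 marker genes of muscle, vessel, fat, surface, valve, airway and blood cells in each library, atrial sections left of the white line and left ventricles right of it. Bright cells fall in single libraries: atrial muscle genes in nanoplastics mouse 1, smooth muscle and fat genes in the atrial section of control mouse 1, and Scgb1a1 in both sections of nanoplastics mouse 4.

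Immune genes leaned to the atrial section, with a median log2 difference of 0.23 over the 19 tested. All 14 tested macrophage genes had a positive log2 difference, 9 with an unadjusted p under 0.05, none called, with a median of 0.29. Over all genes tested, 8.11% were higher at that unadjusted level. Csf1r, the macrophage growth factor receptor, ranged from 6.25 to 18.8 CPM in atrial sections with a median of 13.5, and from 4.20 to 12.1 CPM in left ventricles with a median of 8.07 (0.67, SE 0.24, adjusted p = 0.254). C1qa, a complement gene of resident macrophages, had 71.2 ± 22.3 CPM in atrial sections and 60.6 ± 25.4 CPM in left ventricles (SD, n = 7 each; 0.28, SE 0.13, adjusted p = 0.38). The summed macrophage level was high in both sections of nanoplastics mouse 2 (1604 CPM in the atrial section, 1450 CPM in the left ventricle) and of control mouse 2 (1428 CPM in the atrial section, 1377 CPM in the left ventricle), and in nanoplastics mouse 1 in the atrial section alone (1432 CPM, against 763 CPM in its left ventricle). Ptprc, the leukocyte antigen CD45, averaged 5.31 ± 2.89 CPM in atrial sections and 5.06 ± 1.85 CPM in left ventricles, and the T cell gene Cd3e had no count in any atrial section. Neutrophil, lymphocyte and mast cell genes were too low to test, but for Cd52 (0.17, SE 0.18, adjusted p = 0.762).

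Red cell genes spread widely between animals. Hbb-bs, an adult beta-globin gene, had a median of 185 CPM in atrial sections, with a highest value of 770, and a median of 530 CPM in left ventricles, with a highest value of 1060 (log2 difference -0.86, SE 0.47, adjusted p = 0.52). The erythroid sum was lower in the atrial section in 5 of 7 mice, by a median log2 ratio of -1.19, and higher in control mice 1 and 2. In nanoplastics mice only, 4 globin genes were called lower: Hbb-bs (-1.41, adjusted p = 0.000148), Hbb-bt (-1.56, adjusted p = 0.00166), Hba-a1 (-1.05, adjusted p = 0.00317) and Hba-a2 (-1.12, adjusted p = 0.0126). Hba-a1 had 0.36 in control mice only (adjusted p = 0.944), and without control mouse 2 Hbb-bt and Hba-a2 were called lower. The globin genes have near-identical copies, and the sources used here do not say how reads shared between them were counted.

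Energy genes leaned the other way from the matrix. Of 10 tested mitochondrially encoded genes all had a negative log2 difference, 8 with an unadjusted p under 0.05, none called, with a median of -0.30. Over all genes tested, 4.48% were lower at that unadjusted level. The cytochrome oxidase subunit gene mt-Co1 ranged from 39056 to 75812 CPM in atrial sections with a median of 55350, and from 51674 to 124996 CPM in left ventricles with a median of 80747; it was lower in the atrial section in 6 of 7 mice (-0.49, SE 0.16, adjusted p = 0.272). The exception was nanoplastics mouse 4, with 68358 CPM in its atrial section and 51674 CPM in its left ventricle. Of 25 fatty acid oxidation genes 4 had an unadjusted p under 0.05 and a lower level, none a higher one, and their median was -0.02, turning to 0.09 with library totals alone. Of 65 tested muscle genes none was called, 3 were higher and 4 lower at an unadjusted p under 0.05, and their median was 0.06. Single settings did call some: Myh6 in the 2 settings given above, Ttn and Xirp2 higher in control mice only (0.55 and 0.56, adjusted p = 0.00545 and 0.0169), and Myh7, the slow myosin heavy chain, higher without nanoplastics mouse 4. Sarcomere, channel and junction genes had medians of 0.06 and 0.15, and calcium handling genes -0.12.

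Nanoplastics mouse 4 went against most other mice in several groups and with them in others. Its log2 ratio of sums was -1.80 for the valve list, -1.18 for endocardium, -0.74 for elastic fibre, -0.33 for basement membrane and -0.17 for fibroblasts, against 0.17 for fibrillar collagens and 0.11 for proteoglycans and for collagen processing. Of the 8 called genes, 6 were higher in its atrial section. In its left ventricle, the atrial gene Myl7, the valve gene Cytl1 and Mgp were all above the other left ventricles (838, 85.8 and 607 CPM, against at most 23.7, 23.7 and 292 CPM). Cytl1 is in both the valve and endocardium lists, and Mgp in both the elastic fibre and fibroblast lists. In this left ventricle Cytl1 made up 85.8 CPM of a valve sum of 109 and of an endocardial sum of 144. Mgp made up 607 CPM of an elastic fibre sum of 809 and of a fibroblast sum of 2722. The ratios of these lists are thus not separate. The mouse also stood apart in a single airway gene. Scgb1a1, the secretoglobin of airway club cells, was at 67.3 CPM in its atrial section and 71.9 CPM in its left ventricle, against at most 5.02 CPM in the other atrial sections and 6.28 CPM in the other left ventricles. Of 14 listed lung and airway genes only 5 had a row, the lung gene Sftpc had none, and none was tested. The part of these transcripts in the results of this mouse was not tested.

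Without nanoplastics mouse 4, a choice of library made with the values known, 71 of 5243 genes were higher (1.35%) and 27 lower (0.515%), and all 8 genes above were among them. Of 50 matrix genes tested, 19 were higher and none lower, among them Postn (1.55, SE 0.21, adjusted p = 0.000438), Bgn (1.57, SE 0.22, adjusted p = 0.000438), Ltbp4 (1.75, SE 0.30, adjusted p = 0.00227) and Mgp (1.32, SE 0.26, adjusted p = 0.0476). Of 19 fibroblast genes 7 were higher, and Vim, the mesenchymal filament vimentin, had 1.48 (SE 0.27, adjusted p = 0.0447). Other genes called higher included the valve gene Cytl1 (1.96, SE 0.29, adjusted p = 0.0054), Eng, and Tpm2 (1.87, SE 0.33, adjusted p = 0.00963). Muscle list members were also called higher, Myh7 (0.89, SE 0.18, adjusted p = 0.00726) and Clu, clusterin, listed for atrial muscle and mesothelium (0.55, SE 0.14, adjusted p = 0.0461). No macrophage, pericyte or erythroid gene was called.

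In the same 6 mice, 5 of 10 mitochondrially encoded genes were lower in the atrial section: mt-Co1 (-0.65, SE 0.11, adjusted p = 0.00232), mt-Cytb (-0.54, SE 0.11, adjusted p = 0.00963), mt-Nd1 (-0.52, SE 0.11, adjusted p = 0.00963), mt-Nd5 and mt-Nd6. The mouse left out was the exception for mt-Co1 above, so these p-values are not independent of that choice. With all 7 mice none of the 10 was called. The lower genes also included Mpc1, a subunit of the mitochondrial pyruvate carrier (-0.40, SE 0.09, adjusted p = 0.0192), and Bnip3, a mitochondrial receptor for mitophagy (-0.62, SE 0.12, adjusted p = 0.00707). Without nanoplastics mice 1 and 4 together, 85 of 5350 genes tested were higher and 42 lower. Of the 85, 18 were matrix genes. In the fit of all 7 mice matrix genes made up 48 of 5176 genes tested. Their number among the 5350 is not given here, so the shares are not of the same set. Mouse 1 had the atrial section rich in atrial muscle, and the part of that section in the matrix difference was not tested.

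The section difference was also compared between treatments. The interaction of section and treatment had no call among 5176 genes by edgeR, with 225 at an unadjusted p under 0.05 (4.35%), and none by DESeq2. The count was 4 by edgeR without control mouse 3. The 5 smallest p-values belonged to Xirp2, Ranbp2, Ttn, Golga4 and Dst, which encode large proteins of the sarcomere, nuclear pore, Golgi and cytoskeleton. Median annotated transcript length per count also varied, from 1318 nt in the atrial section of nanoplastics mouse 1 to 1796 nt in that of control mouse 3. The part of transcript length in these genes was not tested. Xirp2, an actin-binding protein of intercalated discs, was lower in the atrial section in all 4 nanoplastics mice (217, 538, 503 and 429 CPM, against 500, 611, 592 and 693 CPM in their left ventricles) and higher in all 3 control mice (426, 708 and 699 CPM, against 329, 470 and 416 CPM; interaction log2 -1.14, SE 0.23, adjusted p = 0.396). The titin gene Ttn had -0.87 (SE 0.22, adjusted p = 0.984). For the called matrix genes the interaction was 0.23 (SE 0.46) for Col1a2, -0.05 (SE 0.23) for Sparc, -0.05 (SE 0.30) for Igfbp7 and 0.08 (SE 0.38) for Timp3, each with an adjusted p of at least 0.986.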

How the data were processed

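Bulk RNA libraries of atrial sections and left ventricles of 7 mice were compared. The deposited values are raw counts per gene symbol in a table of 20960 genes and 21 libraries. Libraries were prepared from oligo-dT captured RNA with barcoded template switching, per the labels' protocols, and the submitters' processing notes name STAR. The sources used here do not state its version, the genome build, annotation or counting program, nor whether strand or molecular identifiers were used.

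The test was made with edgeR 4.0.16 (R 4.3.3): filterByExpr by section, TMM (trimmed mean of M-values) scaling, and the robust quasi-likelihood test with the mouse as a block, since both sections come from the same animal (correlations of same-mouse deviations 0.0887 to 0.426). Genes were called at a Benjamini-Hochberg adjusted p under 0.05. DESeq2 1.42.0, limma 3.58.1, other scaling and filters, left-out mice and other library sets were alternatives. The steps were tested on simulated data. The least different pair of libraries had a chi-square of 1.92 per degree of freedom.

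The comparison and the 36 lists (594 genes) were chosen with earlier results of these data known. Named by rule are the called genes (up to 12 per direction with a mean of at least 10 counts, and up to 4 per list), a fixed set of cell markers, and the 5 smallest interaction p-values; other list members in the text were chosen after their values were seen. GENCODE M21 gave transcript lengths, and promoters were matched by symbol to RefSeq, whose build may not be that of the counts.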

Additional observations from a re-analysis of the deposited data

Results flagged for a closer look

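In 4 results a single mouse stood far from the other 6 by Dixon's test of its within-mouse log2 ratio, a flag that chance gives to about 1 in 20 groups. The summed atrial muscle level had a ratio of 7.44 in nanoplastics mouse 1. The summed fatty acid oxidation level had -0.787 in the same mouse, and the summed smooth muscle list -0.499, a list that holds Pln, Casq2 and Des of heart muscle. Mustn1 had a ratio of 1.7 in control mouse 1.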

How the results depend on the processing

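Genes called higher and lower in the atrial section were 8 and 0. The numbers were 42 and 0 with library totals alone (which moved the median of all genes to 0.12 on the log2 scale), 94 and 21 with no filter on low counts, and 5 and 0 with at least 10 counts in at least 7 libraries. They were 4 and 4 in nanoplastics mice only (0 of the 8 genes and no matrix gene among them), 14 and 3 in control mice only (1 of the 8), 85 and 42 without nanoplastics mice 1 and 4, and 38 and 0 in a fit of all 21 libraries. Leaving out each mouse in turn gave 0 to 71 higher and 0 to 27 lower. With no replicate block 0 were called higher and 0 lower. With DESeq2 size factors it was 6, and with DESeq2 and limma-voom 8 each, of which 5 and 8 were the same genes. Chosen after seeing the data were voom with quality weights, with 26, and a fit without robust moderation, with 12. Log2 differences that turned positive were Nppb (0.0657) and Hba-a1 (0.36) in control mice only. Myl2 did so with library totals alone (0.0599), without nanoplastics mice 1 and 4 (0.10) and in control mice only (0.0571), and ranged from -0.142 to 0.0297 when each mouse was left out. Tnnt2 had 0.057, 0.0200 and 0.074 in those 3 settings and a range of -0.0914 to 0.0149. List medians that moved were atrial muscle 4.19 with no replicate block; smooth muscle 0.74, mesothelium 1.10, adipocyte 1.03 and collagen processing 0.56 with no filter on low counts, where more genes enter; ventricular muscle 0.0571 and collagen processing 0.0841 in control mice only; and endothelium -0.00309 in nanoplastics mice only. The interaction count ranged from 0 to 4 when each mouse was left out, the mean difference in total counts from -429257 to 26955, and that in median transcript length from -15.3 to 42 nt. The causes were not tested. Depth limits low genes such as Eln, Ucp1 and Myh11, tested only with no filter on low counts.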
